A study of Mus musculus with 6 samples.

Results

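A set of 10 genes of B lymphocytes and of MHC class II antigen presentation was followed in RNA-Seq libraries of mouse long-term hematopoietic stem cells (LT-HSCs). They were 4 class II genes (Cd74, H2-Aa, H2-Ab1 and H2-Eb1) and 6 B-lymphoid genes (Cd79a, Cd79b, Igll1, Vpreb1, Ebf1 and Pax5), picked by name. All 10 were among the 27179 genes of the count table, and 6 of them were also in the normalized table of 12179 genes. Both class II genes and B-lymphoid genes were found unevenly: Cd74 ranged from 20 to 70712 reads per library, H2-Aa had at least 317 reads in each, and Cd79a, Igll1, Vpreb1 and Ebf1 had no read in any library. None of the 4 genes with enough reads for a test passed an adjusted p of 0.05 between genotypes.

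The study asked how loss of 1 copy of Foxm1, a forkhead transcription factor, alters stem cells, and sequenced LT-HSCs from 3 WT and 3 Foxm1 heterozygous (Foxm1 HET) mice. Cells were sorted from the BM of C57BL/6 mice at 8 weeks of age as CD150+CD48-LSK cells, that is, cells lacking lineage markers and bearing Sca-1 and c-Kit. The Foxm1 HET samples are titled by a floxed allele over a normal one, with no Cre named, and the genotype label alone marks them as heterozygous. The study deletes Foxm1 with Tie2-Cre, active in endothelial and blood-forming cells, or with Mx1-Cre, induced by interferon, but does not say which was used for these libraries. In other experiments it calls mice with a floxed allele and no Cre WT, and Tie2-Cre mice with such an allele Foxm1 HET. Whether these names hold for the sequenced mice is not stated. The antibodies that removed lineage-positive cells included B220 and IgM, which mark B cells, and IL-7R, which marks lymphoid progenitors. Cells came from 3 pairs of heterozygous and control mice by the study's account. It does not say what a pair shared or which libraries belong together. The main tests therefore took the libraries as unpaired, and their p-values speak only for these libraries.

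MHC class II molecules are pairs of an alpha and a beta chain that carry peptides to CD4 T cells. The invariant chain, encoded by Cd74, holds the pair together and fills its groove until the peptide is loaded. Dendritic cells, B cells and macrophages are the best known carriers, and their class II genes are switched on together by RFX, NF-Y and CREB proteins bound to a shared promoter module and by the coactivator Ciita. In the B lineage, Ebf1 and Pax5 set and hold B-cell identity, Igll1 and Vpreb1 form the surrogate light chain of pre-B cells, and Cd79a and Cd79b are the signalling pair of the B-cell receptor.

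The shared promoter module can be read in front of the alpha-chain gene H2-Aa and the beta-chain gene H2-Eb1, the members of the class II set with a promoter entry in the RefSeq table of GRCm38.p6. The 250 bases before each transcription start are printed here, 5′ to 3′ on the gene's own strand, because the capitals mark the same paired letters in both. The first run of capitals is GCAACT, from the X element that RFX binds, and the second is CTGATTGG, from the Y element that NF-Y binds. H2-Aa is read from chr17:34287824-34288073 on the minus strand and H2-Eb1 from chr17:34305617-34305866 on the plus strand.
H2-Aa: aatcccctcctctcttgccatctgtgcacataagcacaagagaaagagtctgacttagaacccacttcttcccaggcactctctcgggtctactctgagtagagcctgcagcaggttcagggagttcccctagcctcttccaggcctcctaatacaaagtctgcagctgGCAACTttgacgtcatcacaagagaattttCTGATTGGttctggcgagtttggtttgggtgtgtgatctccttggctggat
H2-Eb1: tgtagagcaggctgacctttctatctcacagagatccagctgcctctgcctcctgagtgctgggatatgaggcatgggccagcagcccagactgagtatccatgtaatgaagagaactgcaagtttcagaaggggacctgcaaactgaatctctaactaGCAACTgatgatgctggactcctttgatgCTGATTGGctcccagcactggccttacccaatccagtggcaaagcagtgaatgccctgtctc

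In H2-Aa, GCAACT lay from -81 to -76 and CTGATTGG from -51 to -44, counted back from the first transcribed base. In H2-Eb1 they lay from -91 to -86 and from -62 to -55. The gap between them was 24 bases in H2-Aa and 23 bases in H2-Eb1. Searched on both strands of 32851 promoters, GCAACT was in 9.01% and CTGATTGG, which holds the shorter letters ATTGG found in 33.8%, was in 3.83%. The ordered pair with 5 to 30 bases between was in 5 promoters, or 0.0152%, and these were of H2-Aa, H2-Eb1, H2-Eb2, Gstz1 and Tigd3. The letters and the gap were chosen after the class II sequences had been seen. Neither element was found in the entries of Pax5, Cd79a, Ebf1, Igll1 or Vpreb1. The map of the elements shows their like spacing, and the reads described next show that the pair of genes did not share a pattern over the libraries.

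**Figure D1:**
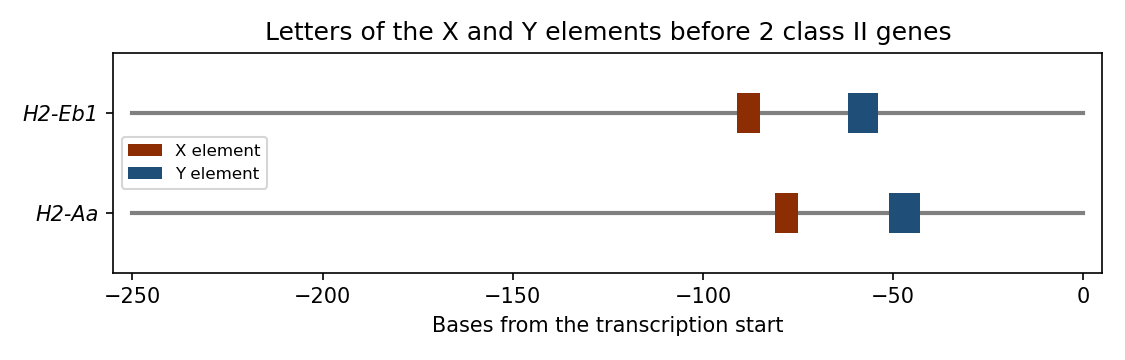
Position of the letters GCAACT (X element) and CTGATTGG (Y element) in the 250 bases before H2-Aa and H2-Eb1, in bases from the transcription start on the horizontal axis. The elements are 24 bases apart in H2-Aa and 23 bases apart in H2-Eb1.

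Libraries held between 14573002 and 25798509 counted reads, and a count of 0 in 1 library allows a level of up to 0.116 to 0.206 CPM (reads scaled to library size), by 3 reads of the total. These limits cover counting error only. The spread between libraries was far wider: of the 8195 genes tested, 44.3% had no more than 1 read in some library and at least 100 in another, and 49.1% of all annotated genes had no read anywhere. Foxm1 had 1182, 2615 and 2942 reads in WT 1 to 3 and 659, 5 and 742 in Foxm1 HET 1 to 3, with no overlap between genotypes (exact permutation test, two-sided, p = 0.1, the smallest that 3 against 3 allow). The genotypes did not overlap for 8.68% of all genes tested. In the edgeR test used below, the log2 fold change of Foxm1, Foxm1 HET minus WT, was -3.30 (SE 2.33, adjusted p = 0.961). Of the LT-HSC genes, Kit and Hlf had at least 10720 reads in every library. Reads of the sorting markers were uneven, with Slamf1 (CD150) at 2, 1572, 0, 8, 0 and 543 and Ly6a (Sca-1) at 125, 4, 2, 2261, 2 and 1597 in the same order. Foxm1 HET 2 stood apart by its lowest depth and by having only 4467 genes with at least 10 reads, against 5963 to 9894 in the others. Values without it are given where it decided the direction of a tested gene or whether its genotypes overlapped.

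Cd74 (chr18:60803849-60812652, plus strand) was the class II gene with the most reads and the widest swings. It had 83, 1255 and 70712 reads in WT 1, 2 and 3 and 9949, 3319 and 20 in Foxm1 HET 1, 2 and 3. WT 3 was the highest library and Foxm1 HET 3 the lowest, and the genotypes overlapped. Per length, these reads were 6.36, 89.5 and 4658 TPM (reads scaled to gene length and to the library) in WT and 579, 354 and 1.31 TPM in Foxm1 HET. In WT 3, Cd74 ranked 14 among all genes by TPM, while in Foxm1 HET 3 it ranked 8667.

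On the scale of log2 CPM after TMM scaling, Cd74 averaged 6.62 ± 5.13 in WT against 5.40 ± 5.42 in Foxm1 HET (SD, n = 3 each). Fitted by edgeR, the log2 fold change, Foxm1 HET minus WT, was -2.53 (SE 1.44, adjusted p = 0.905 with the quasi-likelihood test of edgeR and Benjamini-Hochberg adjustment). Without WT 3 it turned to 3.10, so its direction rested on that library. The two-sided exact permutation test of the log2 CPM gave p = 0.8. The range of Cd74 over the 6 libraries, 12.95 on the log2 CPM scale, was at percentile 99.6 of the tested genes, whose median range was 8.10. The genes with the most similar rise and fall over the 6 libraries, by the smallest value of the largest gap in centred log2 CPM, were Phf23 (1.69), Tmem184b (2.15) and B4galt4 (2.20). Phf23, for one, had 0, 265, 2270, 646, 148 and 1 reads in WT 1 to 3 and then Foxm1 HET 1 to 3.

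H2-Aa (chr17:34282751-34287771, minus strand), the alpha chain of the H2-A molecule, was the steadiest of these genes. Its reads were 927, 840 and 348 in WT against 377, 1105 and 317 in Foxm1 HET. Foxm1 HET 2, the shallowest library, held the most, and the genotypes overlapped. Per length the levels were 94.1, 79.3 and 30.3 TPM in WT against 29.0, 156 and 27.4 TPM in Foxm1 HET. Its range of 4.48 in log2 CPM was at percentile 14.2 of the tested genes.

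H2-Aa averaged 5.02 ± 0.50 log2 CPM in WT against 4.56 ± 2.48 in Foxm1 HET (SD, n = 3 each). The log2 fold change fitted by edgeR was 0.90 (SE 2.31, adjusted p = 0.998), opposite in sign to the difference of those means. Without Foxm1 HET 2 it was -1.89, and the genotypes then no longer overlapped, as was the case for 21.6% of the genes tested in that fit. The exact permutation test over all 6 libraries gave p = 0.9 (two-sided).

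H2-Ab1 (chr17:34263227-34269418, plus strand), which encodes the partner beta chain of H2-Aa, did not follow it. It had 0, 1 and 21 reads in WT against 959, 0 and 181 in Foxm1 HET. Foxm1 HET 1 and Foxm1 HET 3 were the highest, and Foxm1 HET 2, the highest for H2-Aa, had none. Per length H2-Ab1 was at 0, 0.0846 and 1.64 TPM in WT against 66.1, 0 and 14.0 TPM in Foxm1 HET, so that H2-Aa was above it in every library but Foxm1 HET 1. Its log2 fold change was 4.44 (SE 3.42, adjusted p = 0.982, edgeR), between means of -2.04 ± 2.21 and 1.06 ± 4.24 log2 CPM (SD, n = 3 each) and an exact permutation p of 0.4 (two-sided). Leaving out 1 library moved the value between 2.43 (without Foxm1 HET 1) and 8.48 (without WT 3), with its direction kept. Without Foxm1 HET 2 it was 5.10, and the genotypes of H2-Ab1 then no longer overlapped, as for H2-Aa, against 21.6% of all genes in that fit.

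H2-Eb1 (chr17:34305867-34316674, plus strand) encodes the beta chain of H2-E, a molecule that C57BL/6 mice do not display because their alpha chain gene H2-Ea is defective. No read of H2-Ea was counted in any library. H2-Eb1 had no read in the 3 WT libraries and 118, 28 and 1 reads in Foxm1 HET 1, 2 and 3. By these values the genotypes were apart (exact permutation test, two-sided, p = 0.1, the smallest possible), but Foxm1 HET 3 stood 1 read above 0, within counting error. The genotypes did not overlap for 6.60% of the 13845 genes with any read, among which H2-Eb1 falls, and for 8.68% of the genes that passed the filter for the test.

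Summed over each genotype, H2-Eb1 had 147 Foxm1 HET reads, or 2.23 CPM, against a limit of 3 reads over the WT group (0.0464 CPM). By library size, the pooled Foxm1 HET reads were at least 48.1-fold above that limit. This bound covers counting error only and not the spread between libraries, so it does not bound the difference between genotypes. Of the 147 reads, 118 were in Foxm1 HET 1. Without Foxm1 HET 1 this bound was 15.5-fold. edgeR's filter on low counts left H2-Eb1 out of the test. In fits that kept it, with no filter or with 1 library left out, its adjusted p in edgeR ran from 0.538 to 0.954. The order of the 2 highest libraries depended on the scale, with 1.67 log2 CPM in Foxm1 HET 1 and 2.14 in Foxm1 HET 2, and with 5.82 and 2.53 TPM in the same order.

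**Figure D2:**
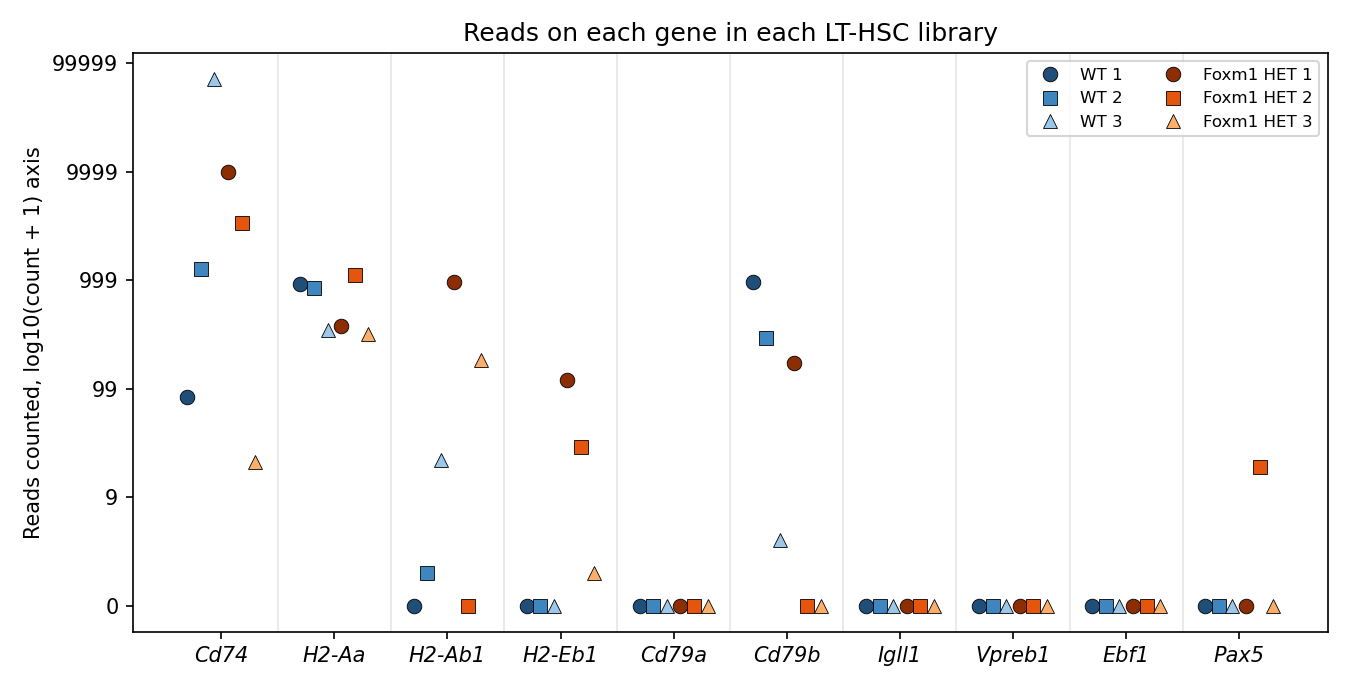
Reads of each gene (vertical axis, log10 of the count plus 1) in each of the 6 libraries, with WT in blue and Foxm1 HET in orange and 1 symbol per library. Cd74 runs from 20 to 70712 reads, H2-Aa stays between 317 and 1105, and Cd79a, Igll1, Vpreb1 and Ebf1 sit at 0.

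Only Foxm1 HET 1 held at least 10 reads of all 4 class II genes. WT 3, with the most reads of Cd74, had 348, 21 and 0 reads of H2-Aa, H2-Ab1 and H2-Eb1. Foxm1 HET 3, with the fewest of Cd74, still had 317 reads of H2-Aa. In WT 1 Cd74 was below H2-Aa per length, at 6.36 against 94.1 TPM, and in WT 3 above it, at 4658 against 30.3 TPM.

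Cd79b (chr11:106311341-106314529, minus strand), the beta partner in the signalling pair of the B-cell receptor, was the B-lymphoid gene with the most reads. It had 967, 289 and 3 reads in WT against 170, 0 and 0 in Foxm1 HET. WT 1 was the highest, Foxm1 HET 1 lay between WT 2 and WT 3, and the genotypes overlapped. Per length this came to 87.5, 24.3 and 0.233 TPM in WT against 11.7, 0 and 0 TPM in Foxm1 HET. Cd79b had a log2 fold change of -3.65 (SE 3.21, adjusted p = 0.986, edgeR), with means of 2.42 ± 3.83 log2 CPM in WT and -1.68 ± 3.35 in Foxm1 HET (SD, n = 3 each) and an exact permutation p of 0.2 (two-sided). Without 1 library it ran from -11.63 (without Foxm1 HET 1) to -2.01 (without WT 1). Without WT 3 or without Foxm1 HET 1 the genotypes no longer overlapped, which held for 17.7% and 15.5% of the genes tested in those fits.

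Its partner Cd79a (chr7:24897511-24902197, plus strand) had no read in any of the 6 libraries. Nor did the surrogate light chain genes Igll1 (chr16:16860671-16863985, minus strand) and Vpreb1 (chr16:16868401-16869255, minus strand), or the B-lineage factor Ebf1 (chr11:44618134-45005175, plus strand). A total of 0 among 130441596 reads allows up to 0.0230 CPM over the 6 libraries for each gene. Pax5 (chr4:44531506-44710440, minus strand), the factor that holds B-cell identity, had 18 reads in Foxm1 HET 2, or 2.25 TPM, and 0 in the other 5 libraries. A gene without a read was not unusual here, as given above for 49.1% of all annotated genes.

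The gene models used for counting limit some of these values. Against the exons of GENCODE M21, the deposited model held 15.1% of the exon bases of Pax5 (1208 of 8004) and 37.6% of those of Ebf1 (2248 of 5984), so their zeros speak only for those bases. Coverage was 83.7% for Cd79b and at least 91.1% for the other 7 genes. Of the 50-base stretches of the transcripts, 23.6% of Vpreb1 were shared with Vpreb2 or Top3b, 8.31% of Cd79a with Gm32220 and 7.02% of Pax5 with other transcripts, and reads from there could have been lost or split. The exons of Cd74 overlapped Mir5107 over 0.848% of their bases. How the counting treated strand and multiply mapped reads is not given in the sources used here.

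By the test across all genes, 27 of 8195 genes, or 0.329%, passed an adjusted p of 0.05 (edgeR), 26 of them up and 1 down in Foxm1 HET. Of the 10 genes, 4 were tested, and 0 passed, with 0 also at an unadjusted p under 0.05. Limma on the normalized table called 0 of them as well, and so did DESeq2, which gave no p for H2-Aa. Of the 4, 2 were higher (H2-Aa and H2-Ab1) and 2 lower (Cd74 and Cd79b) in Foxm1 HET, with a median log2 fold change of -0.82 against -0.26 over all genes tested. The groups did not overlap for 0 of the 4. The standard errors, 1.44 to 3.42, lay on both sides of the median of 2.59 over all genes, and each 95% interval held 0, from -5.36 to 0.29 for Cd74, -3.62 to 5.42 for H2-Aa, -2.28 to 11.2 for H2-Ab1 and -9.95 to 2.64 for Cd79b. Differences of several log2 units in either direction were therefore not detectable for H2-Aa, H2-Ab1 and Cd79b. The narrower interval of Cd74 does not show that such differences were detectable for Cd74. Its SD within genotypes, 5.28 log2 CPM, was at percentile 99.4 of the tested genes. Its log2 fold change without WT 3, 3.10, lay outside that interval.

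**Figure D3:**
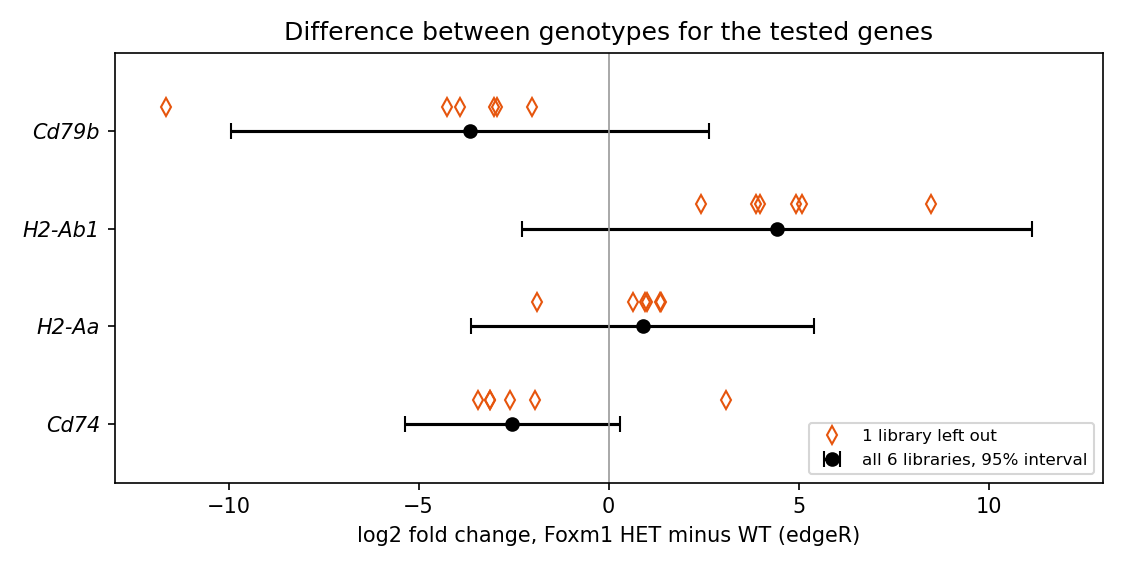
Log2 fold change between genotypes (horizontal axis, Foxm1 HET minus WT, edgeR) of the 4 tested genes, with the 95% interval as a bar and the value after leaving out each library as diamonds. All 4 intervals include 0, and Cd74 and H2-Aa each cross 0 when 1 library is left out, reaching 3.10 and -1.89.

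**Figure D4:**
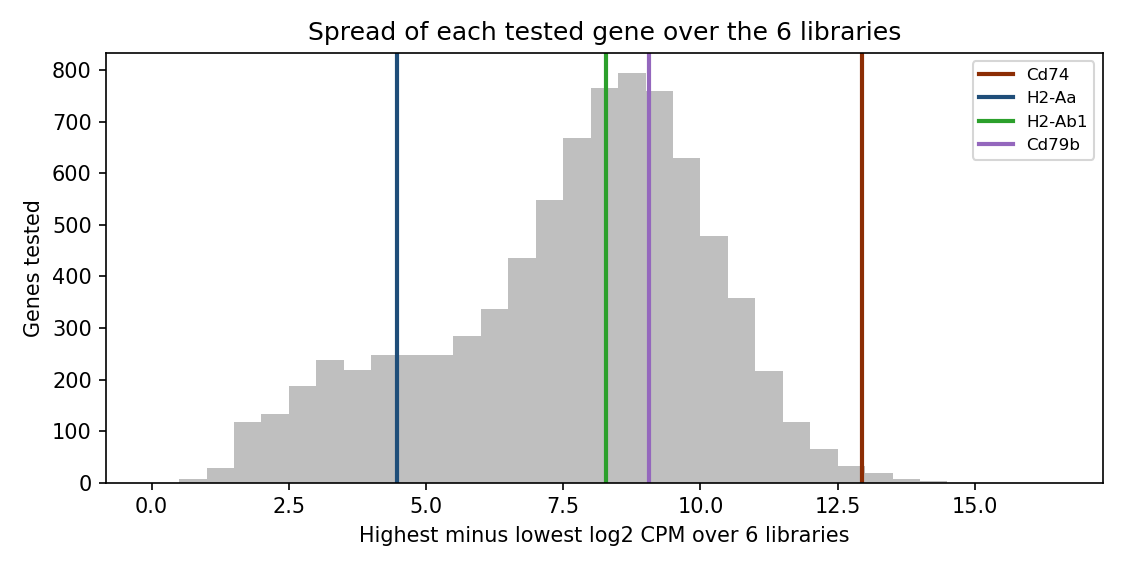
Number of tested genes (vertical axis) by the difference between the highest and the lowest log2 CPM over the 6 libraries (horizontal axis), with the 4 tested genes as lines. H2-Aa at 4.48 lies at the low side, H2-Ab1 at 8.27 and Cd79b at 9.07 near the middle, and Cd74 at 12.95 at the far right.

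To place these genes in their pathways, 84 further genes were read from 7 lists, and 49 of them were tested. None passed an adjusted p of 0.05 with edgeR, against 0.329% of all genes, and 5 (10.2%) had an unadjusted p under 0.05, against 6.03% of all genes. DESeq2 called 2 of the 49 (Ighd and Pou2f2), against 194 of all 8195 genes, and limma called 0 on the normalized table. Among the 49, 26 were higher and 23 lower in Foxm1 HET, the median of their log2 fold changes was 0.12, and the genotypes did not overlap for 3 (Psmb9, Cd37 and Dclre1c, 6.12%, against 8.68%).

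Of 14 genes that process antigen or load and edit class II molecules, 6 were tested, 4 higher and 2 lower, and their median was 0.53 on the log2 fold change scale. H2-DMa, a chain of the peptide exchange factor, had reads mainly in WT 3 (117) and Foxm1 HET 1 (736), and its partners H2-DMb1 and H2-DMb2 had 5 reads in WT 1 and none elsewhere. H2-Ob, a chain of the inhibitor of that factor, had 77, 1 and 12 reads in WT against 43, 1 and 2362 in Foxm1 HET. The protease genes were found more widely. Ctss, which cuts the invariant chain, had 1379, 5750 and 1083 reads in WT against 4959, 2925 and 72 in Foxm1 HET, and Ctsl had 198, 2212 and 2008 in WT against 1175, 103 and 30 in Foxm1 HET. H2-Ob (adjusted p = 0.985) and Ctsl (adjusted p = 0.998) had the smallest p of this list with edgeR.

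Of 10 genes of the class II transcription machinery, 6 were tested, 4 higher and 2 lower, with a median of 1.15. The coactivator Ciita, singled out here after its values were seen, had 1, 0 and 0 reads in WT against 22, 1 and 116 in Foxm1 HET, too few for the test. Its highest library, Foxm1 HET 3, had the fewest reads of Cd74, and WT 3, the highest for Cd74, had no read of Ciita. Rfx5, an RFX subunit, had 264, 176 and 1 reads in WT against 1211, 1 and 6404 in Foxm1 HET (adjusted p = 0.982). Nfya, the NF-Y subunit that reads the Y element shown above, had 22101, 1107 and 1213 reads in WT against 10540, 13927 and 7356 in Foxm1 HET (adjusted p = 0.998). Both sets of values overlapped between genotypes.

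Class I genes, which present peptides to CD8 T cells in nearly all nucleated cells, were all 11 tested, with 4 higher, 7 lower and a median of -0.94. B2m, the common light chain, had 24012 to 52898 reads in every library and H2-K1, a heavy chain, had 1241 to 39861. Psmb9, an immunoproteasome subunit, had 1894, 6740 and 3965 reads in WT against 1022, 3 and 2605 in Foxm1 HET (adjusted p = 0.960). Its genotypes were apart after TMM scaling and overlapped by library size alone. Nlrc5, the class I counterpart of Ciita, had 31, 7763 and 938 reads in WT against 886, 5 and 2827 in Foxm1 HET (adjusted p = 0.998). The H2 class I heavy chains are near copies of each other, so their reads may have been split among genes.

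Of 16 B-cell surface and signalling genes, 7 were tested, 4 higher and 3 lower, with a median of 0.96, and 4 (Ms4a1, Cr2, Fcer2a and Blk) had no read in any library. Cd37, a tetraspanin of mature lymphocytes, had 2253, 26233 and 1303 reads in WT against 1509, 3 and 1339 in Foxm1 HET. The log2 fold change of Cd37 was -4.22 (SE 1.86, adjusted p = 0.675, edgeR), and it was -1.96 without WT 2 and -3.60 without Foxm1 HET 2. Btk, a kinase below the B-cell receptor, had 66, 150 and 35 reads in WT against 38, 226 and 4642 in Foxm1 HET (adjusted p = 0.982).

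Of 10 pro-B and recombination genes, 4 were tested, 2 in each direction. Rag1 and Rag2, whose products cut the receptor loci together, had their reads in different libraries, with 317 of Rag1 in WT 2 and 1326 of Rag2 in WT 3 and at most 3 of either elsewhere. Dclre1c, the nuclease that opens the cut ends, had 45, 97 and 1 reads in WT against 782, 259 and 832 in Foxm1 HET, with no overlap (adjusted p = 0.985). Cd93, also found on HSCs, had 2629, 9416 and 12467 reads in WT against 9880, 128 and 11310 in Foxm1 HET (adjusted p = 0.998). Il7r, whose protein the lineage gate excluded, had 155 reads in Foxm1 HET 1 and at most 1 elsewhere.

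Of 16 transcription factors of B lymphopoiesis, 11 were tested, 6 higher and 5 lower, with a median of 0.75. Factors that stem cells also use were found in every library, Ikzf1 at 7054 to 25805 reads and Myb at 4498 to 23214. Pou2f2, which activates immunoglobulin genes, had 11737, 4 and 491 reads in WT against 77, 6 and 4 in Foxm1 HET. Pou2f2 had a log2 fold change of -7.52 (SE 2.60, adjusted p = 0.300 with edgeR and 0.0147 with DESeq2), and it was -3.83 without WT 1. Tcf3, the E2A factor upstream of Ebf1, had 848, 28200 and 5 reads in WT against 1644, 7 and 2173 in Foxm1 HET. The log2 fold change of Tcf3 was -3.74 (SE 1.82, adjusted p = 0.776, edgeR) and turned to 0.69 without WT 2.

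Of 7 genes at the immunoglobulin loci or of the joining chain, 4 were tested, 2 in each direction. Ighm, the mu constant region, had 39407, 5886 and 1115 reads in WT against 3815, 311 and 8627 in Foxm1 HET, so it was present in all 6 libraries, unlike Cd79a, with which its protein pairs at the surface. Ighd, the delta constant region, had 32, 13994 and 1014 reads in WT against 73, 1 and 6 in Foxm1 HET. The log2 fold change of Ighd was -8.23 (SE 2.57, adjusted p = 0.158 with edgeR and 0.00108 with DESeq2), and -5.45 without WT 2. Jchain, which links secreted antibodies, had 315, 28 and 446 reads in WT against 138, 6442 and 1 in Foxm1 HET. The log2 fold change of Jchain, 4.53 (SE 1.99, adjusted p = 0.674, edgeR), turned to -2.90 without Foxm1 HET 2.

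**Figure D5:**
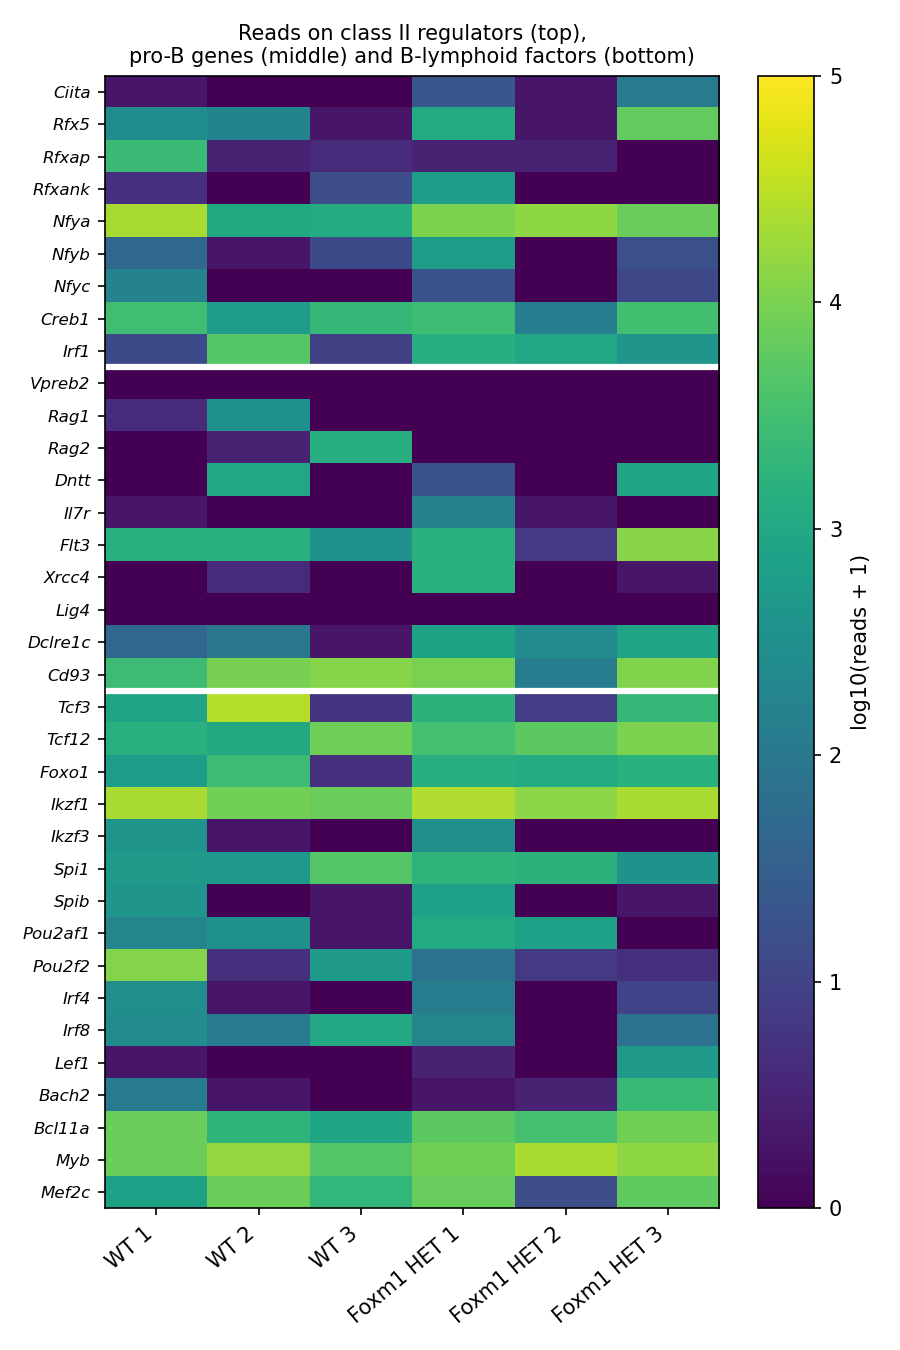
Reads (color, log10 of the count plus 1) of genes of the class II transcription machinery (top), pro-B and recombination genes (middle) and B-lymphoid transcription factors (bottom), with 1 row per gene and 1 column per library. Nfya, Ikzf1 and Myb are bright in all 6 columns, while Rag1, Rag2, Il7r and Lef1 are bright in 1 library each.

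By library, at least 10 reads were found for 3, 3 and 3 of the 10 genes in WT against 5, 4 and 3 in Foxm1 HET. The 84 pathway genes reached 10 reads in 52, 44 and 44 cases in WT against 63, 33 and 48 in Foxm1 HET. The libraries with the most and the fewest, Foxm1 HET 1 and Foxm1 HET 2, were also those with the most and the fewest genes overall (9894 and 4467). Fewer cells of a type and less RNA per cell cannot be told apart in such bulk samples.

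Markers of cells that normally carry class II or B-cell genes were read in full beside them. Of 10 B-cell markers, at least 10 reads were found for 2, 1 and 1 in WT and for 4, 1 and 0 in Foxm1 HET, with summed levels of 12.6 to 200.2 CPM in WT and 0.155 to 86.8 CPM in Foxm1 HET. Cd79a, Ms4a1, Ebf1 and Blk were at 0 in all 6 libraries. Of 10 dendritic cell markers, 4, 3 and 4 reached 10 reads in WT against 6, 2 and 4 in Foxm1 HET, with sums of 101 to 3336 CPM in WT and 311 to 554 CPM in Foxm1 HET. Cd74 itself was in that list and made up most of the 3336 CPM in WT 3. Batf3 was at 0 in every library, and the others peaked in different libraries. Itgax (CD11c) was highest in WT 3 (755 reads), Siglech and Zbtb46 in Foxm1 HET 1 (1942 and 280), Xcr1 in Foxm1 HET 2 (1207) and Cd209a in Foxm1 HET 3 (466).

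Of 10 macrophage or monocyte markers, 5, 2 and 5 reached 10 reads in WT against 6, 2 and 1 in Foxm1 HET, with sums of 16.2 to 380 CPM and 4.69 to 171 CPM, and C1qa, C1qb and Spic were at 0 throughout. Foxm1 HET 3, the lowest library for Cd74 and without reads of Cd79b, had the lowest sums for the B-cell and macrophage lists, and also for the neutrophil, plasma cell and erythroid lists. Of 5 plasma cell markers, 2, 2 and 3 reached 10 reads in WT against 2, 2 and 0 in Foxm1 HET. Their sums were 3.43 to 99.1 CPM in WT and 0.271 to 500 CPM in Foxm1 HET. Jchain was highest in Foxm1 HET 2 (6442 reads), Xbp1 in Foxm1 HET 1 (3386) and Prdm1 in WT 3 (1462), while Sdc1 and Mzb1 were at 0 throughout. All 8 neutrophil genes were found in every library, with sums of 5261 to 15750 CPM in WT and 1362 to 8366 CPM in Foxm1 HET. Of 8 T or NK cell markers, 1, 2 and 3 reached 10 reads in WT against 5, 2 and 3 in Foxm1 HET, and of the 7 erythroid markers with a row of counts, 5, 6 and 4 in WT against 6, 4 and 1 in Foxm1 HET. The part of other cells in the values of Cd74, H2-Ab1, H2-Eb1 and Cd79b was not tested.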

How the data were processed

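LT-HSCs of 3 WT and 3 Foxm1 HET mice were sequenced as single reads. Per the study's methods and processing notes, STAR 2.7.2b placed the reads on GRCm38. The counting program is not given in the sources used here. The labels name a stranded, ribosome-depleted preparation and the methods a Clontech kit. The authors deposited raw counts per gene with exon coordinates and gene length, and a table of normalized values on a log2 scale, in which each library's lowest value marks genes with 0 reads. PCR duplicates cannot be seen in such counts.

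Libraries were grouped by the genotype label. Counts were fitted with edgeR 4.0.16 in R 4.3.3 (default filter on low counts, TMM scaling, quasi-likelihood test, Benjamini-Hochberg adjustment over 8195 genes). The fit was also run on simulated data, with a spread set well below that of these libraries (common coefficient of variation 1.656 in edgeR). That run therefore says nothing of the test at the spread seen here. Log2 CPM used a prior count of 2, and TPM used the deposited lengths. The SE was taken as the size of the fitted log2 difference over the square root of F. Because edgeR shares information on spread between genes, its SE, interval and p need not follow a gene's own spread between libraries. Alternatives were RLE or library-size scaling, a minimum of 10 counts per library or none, a replicate block, each library left out, DESeq2 1.42.0, and limma 3.58.1 on the normalized table. Sequences came from RefSeq (GRCm38.p6), with 7 of the 10 genes matched. Named pathway genes are those with an adjusted p under 0.05 or the 2 smallest p per list, and others named were chosen after their values were seen. The genes and lists were chosen with earlier results of these data known. Some genes of the lists are not reported here by name, and they are included in the counts and sums given over lists.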

Additional observations from a re-analysis of the deposited data

How the results depend on the processing

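Of the 10 genes, 0 passed the threshold under every alternative run. Over all genes, 27 calls became 10 with RLE scaling, 7 with library-size scaling (6 of 7 higher), 194 with DESeq2 (116 higher, 78 lower), and 0 with at least 10 counts in every library (157 at an unadjusted p under 0.05) or with limma on the normalized table (576). Without 1 library they ran from 0 to 29, with 0 without WT 1, WT 2 or Foxm1 HET 2 (615, 549 and 626 unadjusted), 1 without WT 3, 26 without Foxm1 HET 1 and 29 without Foxm1 HET 3. The median log2 fold change of all genes moved from -0.26 with TMM to 0.10 with library size alone. Genes of the set whose genotypes did not overlap rose from 0 to 1 with no filter or in the normalized table (H2-Eb1, left out of the main fit). The share over all genes was 8.68% in the main fit, 6.60% with no filter and 9.64% in the normalized table. Without 1 library, between 1 and 2 genes of the set did not overlap, against 15.0% to 21.6% of all genes tested in those fits. Pathway genes called were 2 of 49 with DESeq2, against 194 of all 8195 genes, and 0 with edgeR when any 1 library was left out.

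The sign turned for Cd74 without WT 3 (3.10), for H2-Aa without Foxm1 HET 2 (-1.89) and in the normalized table (-0.94), for Tcf3 without WT 2 (0.69), and for Jchain without Foxm1 HET 2 (-2.90) and in the normalized table (-0.086). Leave-one-out values ran from -3.43 to 3.10 for Cd74, -1.89 to 1.37 for H2-Aa, -4.37 to 0.69 for Tcf3 and -2.90 to 5.40 for Jchain. Of 106 log2 fold changes recomputed with a p, 94 kept direction and side of the threshold, 10 turned and 2 (Ighd and Pou2f2 with DESeq2) passed it. The cause was not tested.

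Replicate numbers came from the titles. The study speaks of 3 pairs of mice, but no source ties the numbers to the pairs, and the data did not show such a tie: same-number deviations correlated at 0.0162, -0.0253 and -0.0687, and not every sample correlated best with its own number. With a replicate block, edgeR called 0 genes (108 at an unadjusted p under 0.05), and the log2 fold changes were 2.70 for Cd74, -0.64 for H2-Aa, 0.13 for Tcf3 and -1.94 for Jchain, all turned in sign. Unadjusted p under 0.05 appeared for Cd74 with library-size scaling (edgeR, 0.0278), for Cd79b in the normalized table (limma, 0.0428) and for H2-Eb1 without Foxm1 HET 3 (edgeR, 0.0387). The filter on low counts left H2-Eb1, Pax5 and the genes at 0 out of the main fit, and the part of depth in their low counts was not tested. DESeq2 gave no p for H2-Aa, Cd37, Tcf3 and Jchain, each with its direction kept.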

Other observations

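The deposited normalized table and the counts did not always put libraries in the same order. H2-Eb1 had 118 reads in Foxm1 HET 1 and 28 in Foxm1 HET 2, and the table gave 1.29 and 4.14 on its log2 scale. Among 4072 genes with at least 10 reads in both of these libraries, 29.0% stood in opposite order in the table and in CPM by library size, and 20.7% in the table and in CPM after TMM scaling. TMM factors were 1.54 in Foxm1 HET 1 and 0.453 in Foxm1 HET 2, and after TMM scaling H2-Eb1 stood in the order of the table. By library size and after TMM scaling, the share was 28.2% and 19.6% between Foxm1 HET 2 and Foxm1 HET 3, 2.58% and 2.08% between Foxm1 HET 1 and Foxm1 HET 3, and 4.34% and 5.31% between WT 1 and WT 2. Pax5, with 18 reads in Foxm1 HET 2, stood at 4.07 there and at each library's own lowest value in the other 5. For H2-Aa, the table held 6.54, 6.06 and 5.22 in WT against 4.08, 7.38 and 3.52 in Foxm1 HET. Cd74 kept its order in the table, at 2.45, 6.22 and 11.8 in WT against 9.51, 8.19 and 0.58 in Foxm1 HET.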
